A study of Mus musculus with 3 samples.

Results

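Esrrb, Tbx3, Klf2, Klf5, Nr5a2, Stat3 and Tcl1 are 7 genes of the naive state of mouse embryonic stem cells, 5 transcription factors of its network and 2 effectors of its signalling. They were taken by gene symbol from 2 deposited tables of RNA bound by Mettl3 or by Zfp217, and they held 13 entries, for 11 transcripts of the 13595 listed in either table. All 7 genes had at least 1 listed transcript. RNA immunoprecipitation sequencing (RIP-seq, sequencing of the RNA that is pulled down with a protein) was done on nuclear lysate of CCE, a mouse embryonic stem cell line grown without feeder cells in serum and leukemia inhibitory factor (LIF), with no treatment. The groups were a RIP with an antibody against Mettl3, a RIP with an antibody against Zfp217, and the input, with 1 library each. All came from the same unmodified line, and no immunoprecipitation with a nonspecific antibody was analysed here. With 1 library per group no p-value was computed, and each ratio compares libraries, not conditions.

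In the naive state, LIF binds its receptor and activates JAK kinases, which phosphorylate STAT3, and a parallel PI3K and AKT branch feeds the same network of transcription factors. Esrrb and Nr5a2 are orphan nuclear receptors of this network, Tbx3 is a T-box repressor, Klf2 and Klf5 are zinc finger factors of the KLF family, and Tcl1 binds AKT and raises its activity. Mettl3 carries the active site of the nuclear complex that methylates adenosine in mRNA to m6A, within short motifs such as GGACT. Zfp217 is a zinc finger protein of corepressor complexes, and the series asked which RNAs are associated with each protein.

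The letters around the GGACT nearest to the stop codon are shown for the listed coding transcripts, because this pentamer is a common form of the site that Mettl3 methylates. Each is given as RNA-sense DNA, 5′ to 3′, from GENCODE M21 (GRCm38), with the motif in capitals and 10 bases on either side. The pair of listed Esrrb transcripts share their site, as do the pair of listed coding Tbx3 transcripts.
Esrrb: aggcgctgcaGGACTatgagctgag
Nr5a2: ccgccctgctGGACTacacggtttg
Tbx3: cggtggctgtGGACTcggggtcgga
Klf2: acaacgtgttGGACTtcatcctctc
Klf5: gctcacctgaGGACTcatacgggcg
Tcl1: gttttatcacGGACTggcattgcaa

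There were 9501 transcripts in the Mettl3 table and 8120 in the Zfp217 table, as FPKM (fragments scaled by transcript length and by sequencing depth). Each table held no transcript under 1 FPKM in the RIP and none with an input above 0 that was under 1.5-fold higher in the RIP, so that every listed transcript is above its input by selection. These limits were read from the lowest values, and whether another filter acted is not known. The steps between low FPKM values gave an estimated 9990000 scaled fragments for the Mettl3 RIP, 7200000 for the Zfp217 RIP and 6100000 to 6160000 for the input. Of the embryonic stem cell markers, 3 of 8 genes were listed for Mettl3 (Nanog, Pou5f1 and Sox2) and 4 of 8 for Zfp217 (these and Fbxo15). The markers Zfp42, Tdgf1, Utf1 and Dppa5a were in neither table. Over all annotated protein-coding gene symbols, 25.2% were listed for Mettl3 and 21.6% for Zfp217. Of the markers of fibroblasts (7 genes), primitive endoderm (8) and trophectoderm (6) none was listed in either table. A gene that was not listed may still have been expressed.

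The Mettl3 table listed 7 transcripts of 5 members (Esrrb, Tbx3, Klf5, Nr5a2 and Tcl1), and 6 transcripts of 5 members were in the Zfp217 table (Esrrb, Tbx3, Klf2, Tcl1 and Stat3). Klf5 and Nr5a2 were listed for Mettl3 and not for Zfp217, Klf2 and Stat3 for Zfp217 and not for Mettl3, and 3 genes were in both tables. Over all genes, 6971 symbols were in the Mettl3 table and 5933 in the Zfp217 table, of 8547 in either. The members' 3 of 7 in both is thus no larger a share than over all listed genes. By transcript, 2 of the 11 members were in both, against 4026 of all 13595 listed, so that most transcripts were in 1 table only. For comparison, 25.2% of annotated protein-coding gene symbols had a transcript in the Mettl3 table and 21.6% in the Zfp217 table, over genes that include those silent in stem cells. GENCODE M21 annotates 41 transcripts for the 7 genes, and 30 of them were in neither table. Of the 11 listed, 8 were protein-coding and 3 were retained-intron transcripts.

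**Figure D1:**
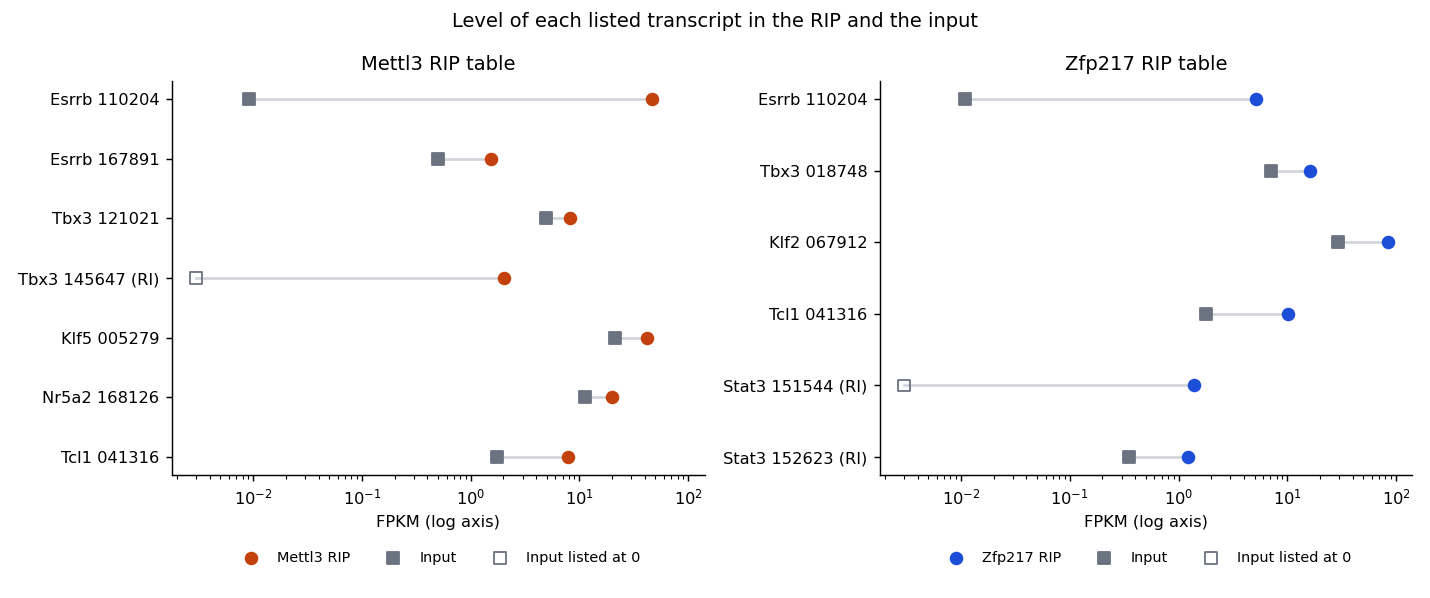
FPKM (log axis) of every listed transcript of the 7 genes in the RIP (circles) and the input (squares) of the Mettl3 table (left) and the Zfp217 table (right), with 1 library per group, the last 6 digits of the Ensembl transcript as label, RI for retained intron and open squares for an input listed at 0 (drawn at the left edge). Klf2 had the highest RIP level of the members in the Zfp217 table (84.8 FPKM) and the longer Esrrb transcript in the Mettl3 table (46.3 FPKM).

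Esrrb, a nuclear receptor that holds stem cells in self-renewal, lies on chromosome 12 from 86361117 to 86521628 (plus strand, GRCm38), with 6 annotated transcripts. Its coding transcript ENSMUST00000110204 had 46.3 FPKM in the Mettl3 RIP and 5.13 FPKM in the Zfp217 RIP, against 0.00921 FPKM (Mettl3 table) and 0.0109 FPKM (Zfp217 table) in the input. The Mettl3 RIP was high and the input close to 0. In estimated fragments this was 1876 in the Mettl3 RIP, 149.7 in the Zfp217 RIP and under 1 in the input (0.230 and 0.269), so no fold over the input is given. Between antibodies, the level with Mettl3 was 9.03 times that with Zfp217 (95% counting interval 7.64 to 10.7, exact binomial), which placed it 6th from the highest among the 4026 transcripts in both tables. Of these transcripts, 5.39% were at least 2-fold higher with Mettl3 on the log2(FPKM + 1) scale. All counting intervals here cover counting error in 1 library each and not the split of fragments between transcripts of a gene.

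This split touches Esrrb in particular, since no 31-base stretch of ENSMUST00000110204 is absent from all other Esrrb transcripts. Its first 321 bases are not in ENSMUST00000116402, another Esrrb transcript, and its last 2805 bases are not in ENSMUST00000110203. Neither of these transcripts was in the tables, so the Esrrb fragments assigned to them in the input were not analysed here, and a different assignment of fragments and a difference in bound RNA cannot be told apart. A shorter coding transcript, ENSMUST00000167891 (1344 bases), had 1.53 FPKM in the Mettl3 RIP and 0.501 FPKM in the input. Its ratio was 3.05, with a counting interval of 0.976 to 13.2 that includes 1, from about 3.70 input fragments. It was not in the Zfp217 table.

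Nr5a2, a nuclear receptor that activates Pou5f1, lies on chromosome 1 from 136842571 to 136960448 (minus strand). Of its 6 transcripts, the coding ENSMUST00000168126 was listed, at 20.04 FPKM in the Mettl3 RIP and 11.2 FPKM in the input. The ratio was 1.79-fold (counting interval 1.54 to 2.09), from about 661 RIP and 228 input fragments. It ranked 2606th of the 3725 transcripts of the Mettl3 table with an input of at least 1 FPKM, whose median ratio was 2.07. Nr5a2 was not in the Zfp217 table. If the limits of that table were the reason, its level in the Zfp217 RIP was under 17.0 FPKM, against 11.3 FPKM in the input on that table's scale.

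Tbx3, which represses differentiation genes, lies on chromosome 5 from 119670669 to 119684724 (plus strand) and was listed with a different coding transcript for each antibody. ENSMUST00000121021 had 8.26 FPKM in the Mettl3 RIP and 4.96 FPKM in the input, a ratio of 1.66 (1.37 to 2.03). ENSMUST00000018748 had 16.1 FPKM in the Zfp217 RIP and 7.07 FPKM in the input, 2.28-fold higher (1.94 to 2.70). Neither was in the other table. If the limits of the tables were the reason, ENSMUST00000018748 was under 10.5 FPKM in the Mettl3 RIP and ENSMUST00000121021 under 7.53 FPKM in the Zfp217 RIP.

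The coding difference between these Tbx3 transcripts is 1 exon of 60 bases (20 codons), shown because it is what the transcript listed for Zfp217 has and the transcript listed for Mettl3 lacks. It lies at chr5:119675243-119675302 (plus strand, GRCm38), and ENSMUST00000018748 is 1 of 6 annotated Tbx3 transcripts and alone holds it.
Tbx3 exon: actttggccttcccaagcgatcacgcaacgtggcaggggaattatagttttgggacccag
The transcripts also differ in the first part of their 5′ untranslated regions. There ENSMUST00000018748 has 175 bases that ENSMUST00000121021 lacks, and ENSMUST00000121021 has 156 that ENSMUST00000018748 lacks. Of the 31-base stretches, 1.74% of ENSMUST00000018748 and 0.569% of ENSMUST00000121021 are in no other Tbx3 transcript. Their levels thus rest on few fragments that tell them apart from all other Tbx3 transcripts. A retained-intron transcript of Tbx3, ENSMUST00000145647 (725 bases), had 2.01 FPKM in the Mettl3 RIP and was listed at 0 in the input. It holds 113 bases of intron 2 of the longest coding transcript and 612 bases of that transcript's exons, and its level stood for about 11.7 fragments. Of its 31-base stretches, 15.8% are in no other Tbx3 transcript, so its level too depends on the split of fragments between transcripts.

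Klf2, a KLF factor that the naive state needs when ERK signalling is blocked, is on chromosome 8 (72319033 to 72321656, plus strand) and has 1 annotated transcript, ENSMUST00000067912. It had 84.8 FPKM in the Zfp217 RIP and 29.3 FPKM in the input. This was 2.89-fold higher (counting interval 2.55 to 3.30), from about 1040 RIP and 304 input fragments, with no other annotated transcript to share them. It ranked 90th of 8120 by level in the RIP, and 291st of 2511 by ratio among transcripts with an input of at least 1 FPKM. Klf2 was not in the Mettl3 table, where the limits, if they were the reason, would place it under 43.5 FPKM in the RIP against 29.0 FPKM in the input.

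Klf5, a KLF factor of the self-renewal circuit, lies on chromosome 14 from 99298691 to 99315036 (plus strand). Its transcript ENSMUST00000005279 had 41.7 FPKM in the Mettl3 RIP and 21.3 FPKM in the input, a ratio of 1.96 (1.76 to 2.19; about 1337 and 421 fragments). By ratio it was 2115th of the 3725 transcripts with an input of at least 1 FPKM. It was not in the Zfp217 table, where the limits, if they were the reason, would place it under 32.3 FPKM in the RIP against 21.5 FPKM in the input. Listing selected the ratios of Klf2, Klf5 and Nr5a2 to be at least 1.5, so their counting intervals cannot be read against that limit. The difference between the antibodies was not tested for lack of the other value.

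**Figure D2:**
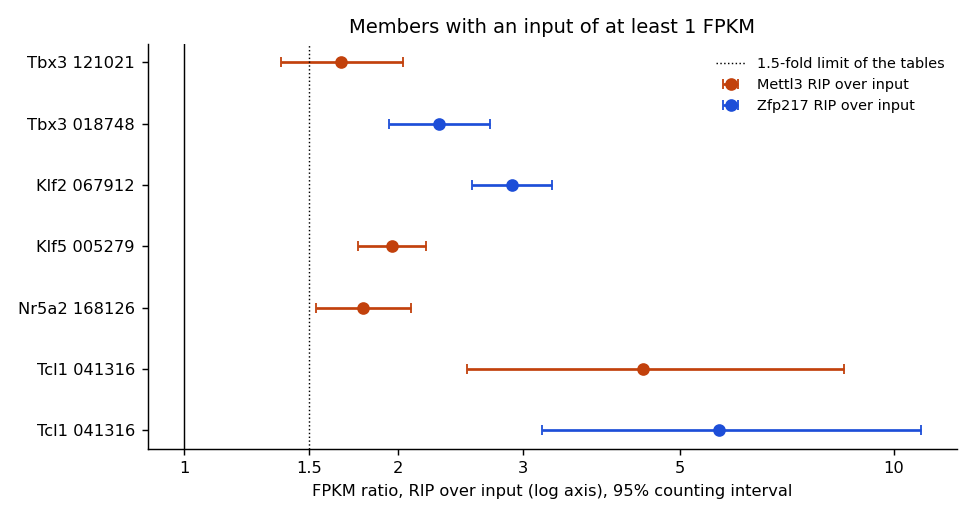
FPKM ratio of RIP over input (log axis) with its 95% counting interval for members with an input of at least 1 FPKM, Mettl3 in orange and Zfp217 in blue, with 1 library per group and the 1.5-fold lower limit of the tables dotted. Tcl1 had the highest ratio for both antibodies (4.43 and 5.68), and the Tbx3 transcript listed for Mettl3 had the lowest ratio shown (1.66, 1.37 to 2.03). Every ratio shown was at least 1.5 by selection, so the intervals cannot be read against that limit.

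Tcl1, an AKT coactivator under the control of Pou5f1, lies on chromosome 12 from 105216750 to 105222793 (minus strand). The coding transcript ENSMUST00000041316, 1 of 6 annotated, had 7.78 FPKM in the Mettl3 RIP and 1.75 FPKM in the input, a ratio of 4.43 (2.50 to 8.50). It had 10.1 FPKM in the Zfp217 RIP and 1.77 FPKM in the input, 5.68-fold higher (3.19 to 10.9). Among transcripts with an input of at least 1 FPKM it ranked 210th of 3725 by ratio for Mettl3 and 31st of 2511 for Zfp217. Both ratios divide by the same input library, in which it had about 13.6 fragments, and 2.34% of the 31-base stretches of this transcript are in no other Tcl1 transcript. Set directly against each other, the Mettl3 RIP was at 0.772 of the level in the Zfp217 RIP, with an interval of 0.574 to 1.04 that includes 1; 3.43% of the 4026 transcripts were at least 2-fold lower with Mettl3 on the log2(FPKM + 1) scale.

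Stat3, the transcription factor that LIF signalling activates, is on chromosome 11 (100885098 to 100939540, minus strand) and has 14 annotated transcripts, 4 of them coding. None of the coding transcripts was listed for either antibody. ENSMUST00000152623, a retained-intron transcript of 609 bases, had 1.24 FPKM in the Zfp217 RIP and 0.353 FPKM in the input. ENSMUST00000151544, another of 408 bases, had 1.38 FPKM in the Zfp217 RIP and was listed at 0 in the input. These levels stood for about 4.14 and 2.62 fragments in the RIP, and the ratio of the first had an interval of 0.353 to 170, so no enrichment of these Stat3 transcripts was detectable at this depth. ENSMUST00000152623 holds all 294 bases of intron 6 of the longest coding transcript and 124 of the 145 bases of intron 7, and ENSMUST00000151544 holds 213 of the 484 bases of intron 17.

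On the scale log2((RIP + 1)/(input + 1)), among transcripts with a mean of RIP and input of at least 1 FPKM, 3 of 7 member transcripts had at least 2 times the input with Mettl3, where 51.1% of all 6667 such transcripts were. These were Esrrb ENSMUST00000110204 (log2 ratio 5.55), Tcl1 (1.67) and the Tbx3 retained-intron transcript (1.59). Esrrb and this Tbx3 transcript had an input at or near 0, where any transcript that passes the filter is at least 2-fold higher by construction. The same holds for such inputs among all transcripts. Without them, 1 of the 5 member transcripts left was at least 2-fold higher (37.6% of all). The median of the 7 was 0.94, against 1.02 over all. In the Zfp217 RIP, 4 of the 6 listed member transcripts passed the same filter, and all 4 were at least 2-fold higher, where 49.1% of all 5248 were. These were Esrrb (2.60), Tcl1 (2.00), Klf2 (1.502) and Tbx3 (1.09), with a median of 1.75 against 0.98 over all. Esrrb had an input near 0 here too, so that its call was likewise fixed by the filter. With an input of at least 1 FPKM, 3 of 3 member transcripts were at least 2-fold higher on this scale (20.7% of all). With an input of at least 1 FPKM and the plain ratio, 1 of 4 members was at least 2-fold higher for Mettl3 (54.3% of all) and 3 of 3 for Zfp217 (39.3% of all). So few transcripts allow no statement on the genes as a group.

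**Figure D3:**
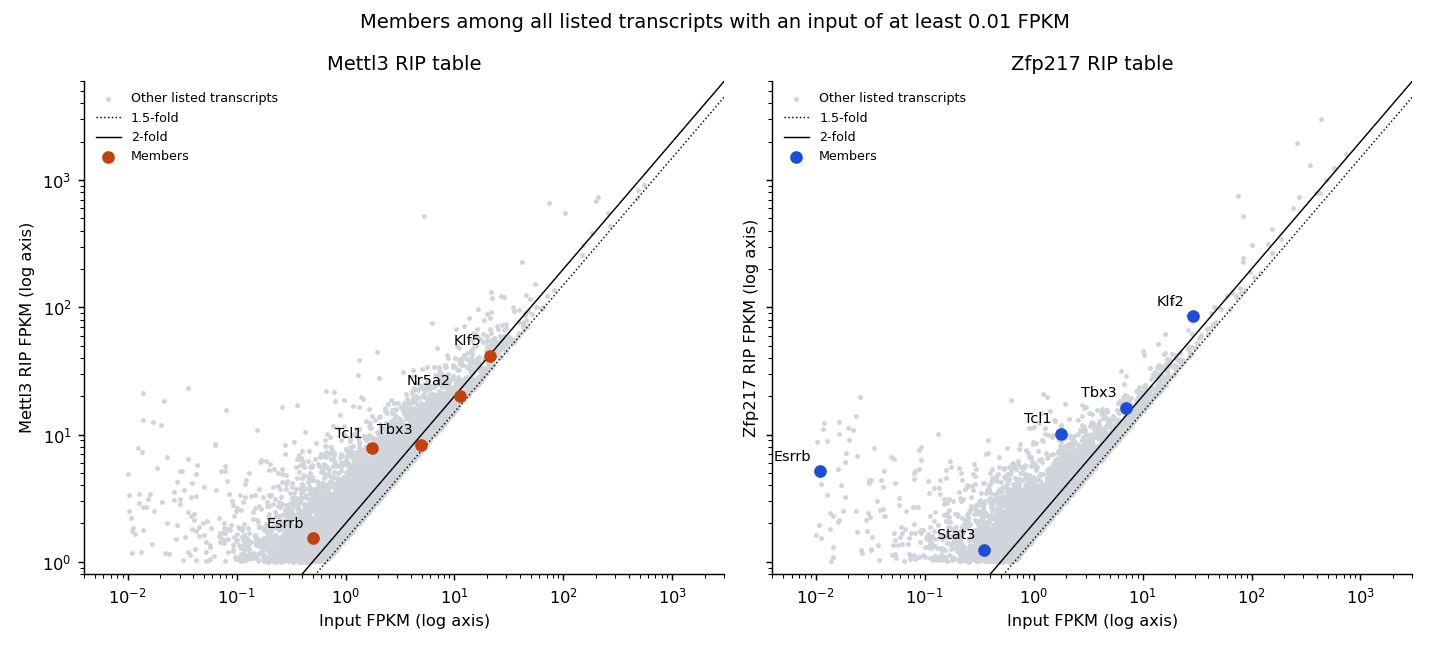
RIP against input FPKM (log axes) for listed transcripts with an input of at least 0.01 FPKM (grey) and for the members among them (coloured, labelled by gene) in the Mettl3 table (left) and the Zfp217 table (right), with 1 library per group, the 2-fold line solid and the 1.5-fold line dotted. Tcl1 lies well above the 2-fold line in both, Klf5, Nr5a2 and Tbx3 between the lines for Mettl3, and the Esrrb point at 46.3 FPKM in the Mettl3 RIP is left out because its input was under 0.01 FPKM.

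All 8 listed coding transcripts hold GGACT on the sense strand, as do 88.8% of the coding transcripts of the Mettl3 table with an M21 sequence, 84.6% of those of the Zfp217 table and 78.7% of all annotated coding transcripts, which are shorter at the median (1816 against 3174 and 2395 bases). Motifs were counted in whole transcripts, so these shares compare transcripts of different lengths. Per kilobase, ENSMUST00000167891 of Esrrb had 3.72, ENSMUST00000110204 had 1.91 and Klf2 had 0.541, with Tcl1 at 0.715, Klf5 at 0.895 and Nr5a2 and both coding Tbx3 transcripts between 1.44 and 1.47. The medians were 0.975 in the Mettl3 table and 1.03 in the Zfp217 table. Esrrb, Tbx3, Nr5a2 and Klf5 have their nearest site 175, 172, 178 and 188 bases before the end of the stop codon, inside the coding sequence. Esrrb and Tbx3 are in both tables, and Tcl1, also in both, has no such site. A site within the last 200 bases up to the end of the stop codon, a window chosen after these positions were seen, is in 6 of the 8 member transcripts, which come from 4 genes and share sites within a gene. It is in 21.2% of coding transcripts of the Mettl3 table, 22.3% of those of the Zfp217 table and 21% of all annotated ones with a stop codon. In Klf2 the only site lies 931 bases before it, and in Tcl1 the only site lies in the 5′ untranslated region, 392 bases before it. A match is a run of letters, and methylation was not measured here.

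**Figure D4:**
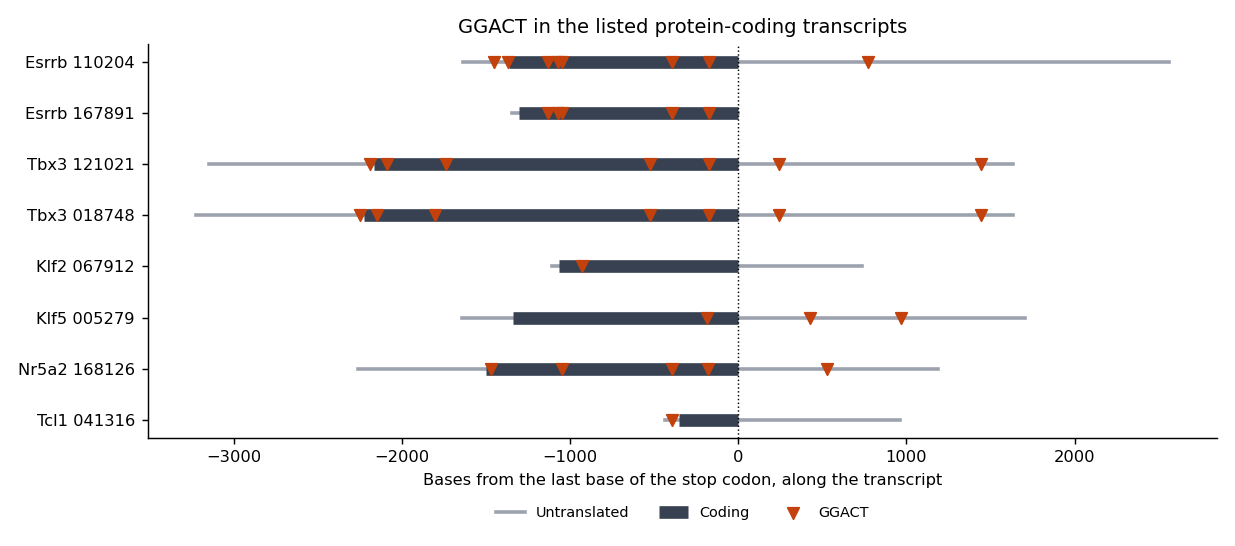
Position of GGACT (triangles, at the A of the motif) in the 8 listed protein-coding transcripts, in bases from the last base of the stop codon along the transcript, with coding sequence as thick bars and untranslated regions as thin lines. Esrrb, Tbx3, Nr5a2 and Klf5 have a site 172 to 188 bases before the stop codon's end, and Klf2 and Tcl1 have 1 site each, further upstream. In all annotated coding transcripts, 21% have a site in the last 200 bases before the stop codon's end. This window was chosen after the members' positions were seen, so the members cannot be tested against that share.

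By level in the 3 libraries, the transcripts most like Esrrb ENSMUST00000110204 were those of Gm17635 and Tet1, a DNA demethylase, among 2812 coding transcripts of other genes in both tables. Their distances over log2(FPKM + 1) were 0.97 and 1.15. The Tet1 transcript had 101.7 FPKM in the Mettl3 RIP and 4.09 FPKM in the Zfp217 RIP and was listed at 0 in the input. The transcripts most like that of Tcl1 were of Ptbp1, a splicing repressor (6.66 FPKM for Mettl3, 9.97 FPKM for Zfp217 and 1.503 FPKM in the input), and Ctsd, a lysosomal protease (9.54, 9.58 and 1.47 FPKM), at distances of 0.24 and 0.32.

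The genes around the members were described by lists, in numbers of genes listed and of kept transcripts that were at least 2-fold higher. Kept transcripts had a mean of at least 1 FPKM, and they were counted on the scale log2((RIP + 1)/(input + 1)). Folds of the genes named below are plain FPKM ratios, so a gene given as above 2-fold (as Lifr, Pim3 and Gsk3b for Mettl3) need not be among those counted. Of 18 genes of LIF and STAT3 signalling, 7 were listed for Mettl3 and 8 for Zfp217. Their kept transcripts were at least 2-fold higher in 4 of 6 cases for Mettl3 and 2 of 5 for Zfp217. The 2 for Zfp217 had an input under 1 FPKM. Here and for the lists that follow, the background is the 25.2% (Mettl3) and 21.6% (Zfp217) of coding genes listed, and the 51.1% and 49.1% of kept transcripts at least 2-fold higher. The LIF receptor Lifr was at 19.8 FPKM in the Mettl3 RIP and 9.51 FPKM in the input, a ratio of 2.08 (1.89 to 2.29). Socs3, the feedback inhibitor of the LIF receptor, was at 43.4 FPKM in the Mettl3 RIP and 23.0 FPKM in the input, 1.89-fold higher (1.67 to 2.14). Neither was listed for Zfp217. Pim3, a kinase gene induced by STAT3, was at 3.25 FPKM in the Zfp217 RIP and 1.26 FPKM in the input, 2.59-fold higher (1.48 to 4.72). The median log2 ratio of the transcripts kept was 1.46 for Mettl3 (6 transcripts) and 0.91 for Zfp217 (5).

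Of 16 genes around Tcl1 and AKT, 8 were listed for Mettl3 and 5 for Zfp217. At least 2-fold higher were 4 of 7 kept transcripts for Mettl3 and 1 of 4 for Zfp217, the latter with an input under 1 FPKM. Gsk3b, a kinase that AKT inhibits, was at 7.02 FPKM in the Mettl3 RIP against 3.44 FPKM in the input (2.04-fold, 1.72 to 2.43) and at 5.74 FPKM in the Zfp217 RIP against 3.48 FPKM in the input (1.65-fold, 1.37 to 1.99). Rictor, a subunit of the kinase complex that phosphorylates AKT, was 2.30-fold higher for Mettl3 (1.99 to 2.66) and 1.55-fold for Zfp217 (1.32 to 1.82). Of 16 other naive-state genes, 7 and 8 were listed, and 4 of 7 and 5 of 10 kept transcripts were at least 2-fold higher. Gbx2, a homeobox gene downstream of STAT3, was at 5.97 FPKM in the Mettl3 RIP against 3.11 FPKM in the input (1.92-fold, 1.33 to 2.85) and at 7.86 FPKM in the Zfp217 RIP against 3.14 FPKM in the input (2.50-fold, 1.72 to 3.72). Of 13 formative and primed genes, 9 and 8 were listed. Among their kept transcripts 4 of 10 and 2 of 9 were at least 2-fold higher, with medians of 0.86 and 0.56. Etv5, an ETS factor of the FGF pathway, was 4.30-fold higher for Mettl3 (62.95 against 14.6 FPKM, 3.83 to 4.84) and 1.82-fold for Zfp217 (26.99 against 14.8 FPKM, 1.60 to 2.08).

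Of 15 other KLF genes, 10 were listed for Mettl3 and 5 for Zfp217. Their kept transcripts were at least 2-fold higher in 8 of 12 cases for Mettl3 and 4 of 5 for Zfp217. Klf3, a repressor of the family, was 4.73-fold higher for Mettl3 (13.2 against 2.80 FPKM, counting interval 3.78 to 5.98) and 2.73-fold for Zfp217 (7.74 against 2.83 FPKM, 2.14 to 3.52), so that its ratio was above those of Klf5 for Mettl3 and within the interval of Klf2 for Zfp217. Of 16 nuclear receptor, T-box and STAT relatives of the members, 4 and 3 were listed. Nr6a1, an orphan nuclear receptor, was 7.11-fold higher for Mettl3 (9.32 against 1.31 FPKM, with no interval for want of an M21 length). Esrra, a paralog of Esrrb, was at 2.75 FPKM in the Zfp217 RIP and 1.64 FPKM in the input, 1.67-fold higher with an interval of 0.967 to 2.98 that includes 1. The lists share some genes, and all ratios for 1 antibody share the same pair of libraries.

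**Figure D5:**
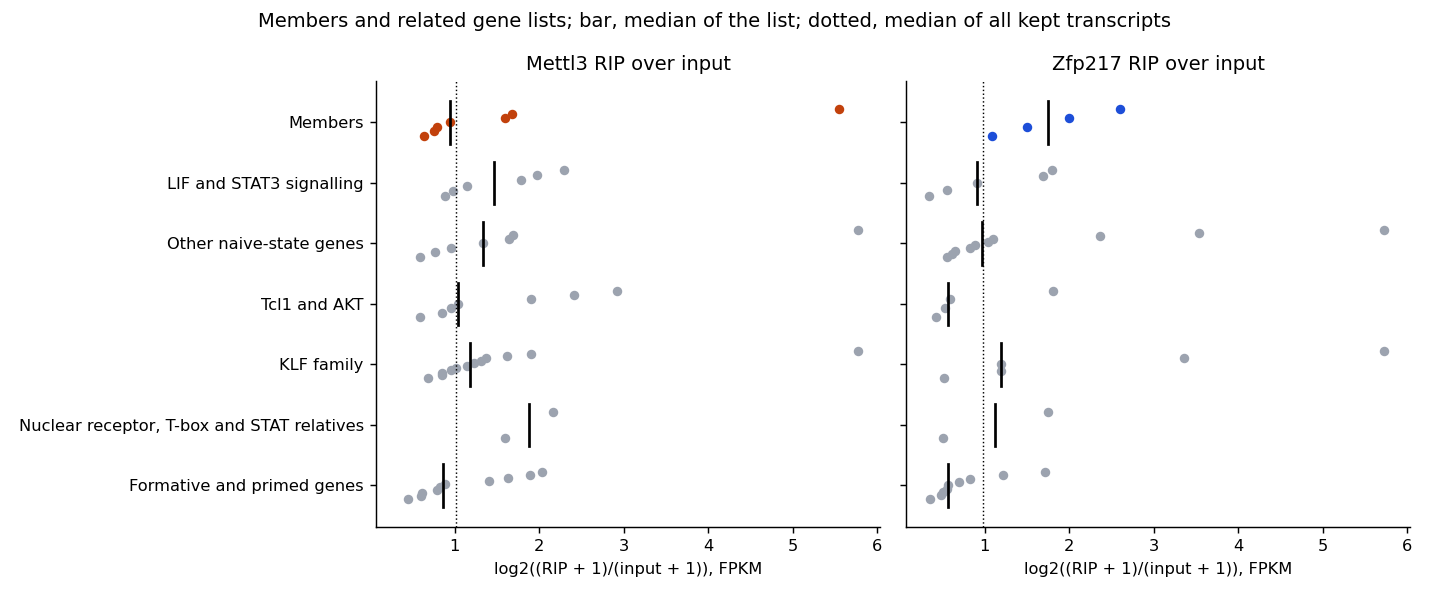
log2((RIP + 1)/(input + 1)) of FPKM for each kept transcript of the members (coloured) and of 6 related gene lists (grey) in the Mettl3 table (left) and the Zfp217 table (right), with 1 library per group, the median of each list as a bar and the median of all kept transcripts dotted. The members' median was 0.94 for Mettl3, below the dotted line at 1.02, and 1.75 for Zfp217, above the dotted line at 0.98, from 7 and 4 transcripts.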

How the data were processed

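For each antibody the authors deposited a table of Ensembl transcripts that gives FPKM in RIP and input and their log2 fold change. The unit is not in the headers and was read from the Cuffdiff form of the tables. Build mm9, TopHat2 2.0.8, Bowtie2, Cuffdiff, Cufflinks and CASAVA 1.4 are named per the submitters' processing notes, with roles and settings not given in the sources used here. As the shared input differed between tables by a factor of 0.989 (Mettl3 over Zfp217), ratios were taken within a table. Recomputed log2 FPKM ratios were within 0.00466 of the deposited ones.

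Log2 ratios used a pseudocount of 1 FPKM, which understates low transcripts, a filter of a mean of at least 1 FPKM, and 2-fold as the rule of size. Folds are plain FPKM ratios, given where the input held at least 1 fragment. Depth was the fragment number that made the low values (up to 8 fragments) of genes with 1 annotated transcript whole, at a fragment length of 145 bases; 84.4% to 88.2% of 72 to 186 values per library were whole within 0.1, and on simulated data the step found each library's depth 0.545% to 1.2% too low and a fragment length of 155 bases for a true 160. Intervals are exact binomial at 95% and cover counting error only. Transcript identifiers matched GENCODE M21 (GRCm38) for 88.3% and 88.8% of the tables, and coordinates come from M21 alone. Named were all members, up to 4 transcripts per list and table (the 2 highest and 2 lowest ratios with an input of at least 1 FPKM), from which examples are given, and the 2 transcripts nearest in level to each member in both tables. The members and lists were chosen with earlier results of these data known. Python 3.11.15, pandas 2.3.3, numpy 2.4.6 and scipy 1.17.1 were used.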

Additional observations from a re-analysis of the deposited data

How the results depend on the processing

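The count of member transcripts with at least 2 times the input for Mettl3, 3 of 7, was 1 of 5 with an input of at least 0.01 FPKM (37.6% of all transcripts) and 1 of 4 with an input of at least 1 FPKM (33.8%), since Esrrb and a Tbx3 transcript drop out by construction. For Zfp217 it was 4 of 4, and 2 at 3-fold (34.2% of all). The members' median log2 ratio for Mettl3, 0.94, was 1.44 with a pseudocount of 0.1 FPKM, where that of all transcripts went to 1.38. With an input of at least 0.01 FPKM it was 0.78 (0.86 over all). For Zfp217 the median, 1.75, was 1.98 with a pseudocount of 0.1 FPKM (1.378 over all) and 1.38 with no filter (1.095 over all). It was 1.502 with an input of at least 1 FPKM (0.6895 over all) and 1.502 when summed by gene (1.12 over all). Of 27 recomputed ratios of single transcripts, 22 moved by less than their counting interval allows; the other 5 had an input at or near 0 and so no interval, with Esrrb at 8.73 (Mettl3) and 5.56 (Zfp217) on the log2 scale at a pseudocount of 0.1 FPKM. No paired analysis was possible because each group has 1 library. Levels of transcripts that share sequence depend on how fragments were assigned, and the members in 1 table only have no value for the other antibody.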
